A study of Sus scrofa with 20 samples.

Results

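The comparison set hearts of pigs given repeated sessions of brief coronary occlusion (RCO) against hearts of pigs given 1 such session (SWOP, the name used for the second window of preconditioning). Its members were all arrays labelled with either group, 10 of the 20 arrays in the series, with 5 pigs in RCO and 5 in SWOP. A session consisted of 2 cycles of 10 min of coronary artery occlusion, each followed by 10 min of reperfusion. RCO pigs received 6 sessions at intervals of 12 h, and SWOP pigs received 1 session and were sampled after 24 h of reperfusion. The individual RCO labels name 6 occlusions of 10 min and leave out the 2 cycles that the series description gives. A sham-operated control group of 5 pigs showed where each of them stood, and the remaining 5 arrays, from pigs with repeated low-flow ischemia, entered only the estimate of spread. All pigs were female, the tissue is given as heart with no region, and the sources used here give neither strain nor age. The time between the last RCO session and sampling is not given either, so the number of sessions and the time since the last occlusion cannot be told apart. The title of the series asks if chronic, repeated ischemia preconditions the heart through other molecular mechanisms than the classical second window does.

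Brief ischemia protects the heart against a later, longer occlusion. An early phase fades within hours, and a second window of protection opens about a day later and depends on newly made proteins. Among the genes that brief ischemia and reperfusion are known to induce are chaperones that refold damaged proteins, immediate early transcription factors, and antioxidant and inflammatory enzymes. A heart that meets ischemia repeatedly can also remodel its metabolism and its extracellular matrix.

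The values were deposited log2 signals for 23999 probe sets of a porcine array, and each of 6765 named genes was represented by its brightest probe set. A gene was called when its limma adjusted p was below 0.05 over all probe sets. Array medians lay between 6.75 and 6.82 in the 2 groups. The number of arrays limits precision, at a typical (median) SE of 0.116 for the log2 difference of 1 gene, and p-values measure the spread between separate pigs. The spread was wider in RCO, with a median SD of 0.218 against 0.126 in SWOP, and 79.8% of probe sets had the larger SD in RCO. RCO arrays correlated with each other at 0.959 to 0.99, and SWOP arrays at 0.991 to 0.996. RCO replicates 2 and 3 stood apart from the other RCO arrays in macrophage, matrix and matricellular genes, as given below, so results that rest on them are also given without them. RCO replicate 1 and SWOP replicate 1 had the highest spike-in signal, at 11.09 and 10.91, against 10.46 to 10.65 on the other arrays of both groups. The 3′ minus 5′ signal of the EF1a spots, which tracks how intact the transcripts were, was 0.128 lower in RCO (two-sided exact permutation p = 0.0159, n = 5 per group). That of the actin spots was lowest in RCO replicates 2 and 3, at 0.78 and 0.79. RCO minus SWOP was −0.318 for the actin spots and 0.036 for the GAPDH spots (exact permutation p = 0.135 and p = 0.619). These p-values were not adjusted for the number of array properties tested. The part of these array properties in the results was not tested.

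The arrays measured heart muscle in both groups. The 13 cardiomyocyte markers had a mean log2 signal of 13.60 to 13.86 on RCO arrays and 13.80 to 13.99 on SWOP arrays. Among them, titin and cardiac actin had mean log2 signals of 13.91 and 13.72 in RCO and 14.21 and 14.07 in SWOP. Of the 6 neutrophil markers 4 were dim in both groups, below the 30th percentile of signal, and none of the 6 was called by limma.

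Of the probe sets 2414 (10.1%) were called, 900 higher (3.75%) and 1514 lower (6.31%) in RCO. Of the genes 808 (11.9%) were called, 375 higher (5.54%) and 433 lower (6.4%). The larger changes were mostly upward, with 83 genes at least 2-fold higher and 13 at least 2-fold lower. All 5 RCO arrays lay above all 5 SWOP arrays for 222 genes (3.28%) and below them for 271 genes (4.01%). The median difference over all genes was 0.02 (log2). The direction moved with signal: with probe sets split by signal into 3 equal parts, 58.7% of calls in the dimmest part were higher in RCO, 44.9% in the middle part and 26.1% in the brightest part. These counts depended on single arrays: they were 182 higher and 262 lower without RCO replicate 3, 156 and 209 without SWOP replicate 2, 199 and 260 without SWOP replicate 3, 208 and 249 without SWOP replicate 4, and 142 and 184 without SWOP replicate 5. Leaving out RCO replicates 2 and 3 together left 202 higher and 226 lower. The calls of 127 higher and 156 lower genes remained in every fit that left out 1 array. Beside these, 11.3% of genes were called higher and 4.26% lower in RCO against control, and 4.66% and 3.5% in SWOP against control. The 3 comparisons share arrays, so their values are given side by side only.

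**Figure D1:**
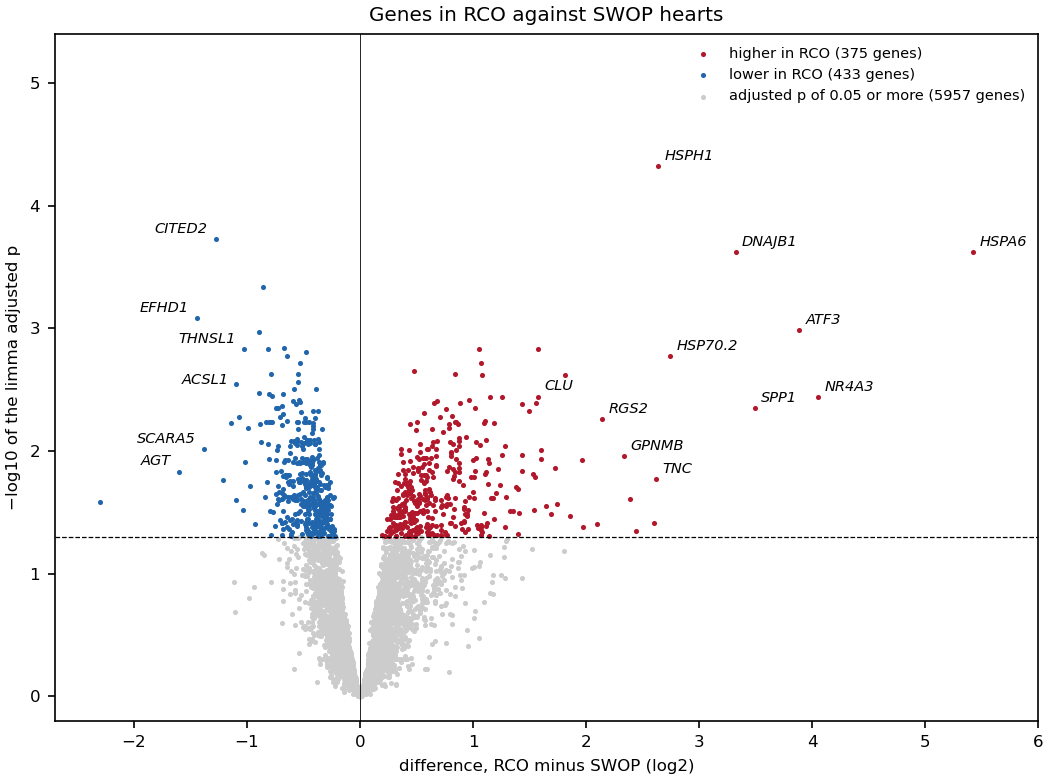
Difference between RCO and SWOP (log2, x axis) against −log10 of the limma adjusted p (y axis) for 6765 genes, n = 5 pigs per group. Red points are the 375 genes called higher in RCO, blue points the 433 called lower, and the dashed line marks an adjusted p of 0.05. The largest differences are upward and belong to HSPA6, NR4A3, ATF3 and SPP1.

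The inducible heat shock genes held some of the largest differences. HSPA6, an inducible member of the HSP70 family that is nearly silent in unstressed cells, had log2 signals of 11.88, 9.10, 13.13, 12.85 and 12.77 in RCO hearts, against 7.59, 6.03, 6.41, 6.13 and 6.46 in SWOP hearts. The lowest RCO array, replicate 2, was still above the highest SWOP array, replicate 1. HSPA6 was 42.9-fold higher in RCO, a log2 difference of 5.42 ± 0.68 (SE, n = 5 per group, limma adjusted p = 0.000241). It was 5.32 above control in RCO and 0.11 below control in SWOP (log2, limma adjusted p = 0.000256 and adjusted p = 0.938).

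DNAJB1, the HSP40 cochaperone that hands unfolded clients to HSP70, had log2 signals of 12.24, 9.76, 12.37, 11.77 and 12.03 in RCO and 8.89, 8.14, 8.25, 8.29 and 7.99 in SWOP. It was 10.0-fold higher (log2 3.32 ± 0.41, limma adjusted p = 0.000241). HSPH1, the HSP110 family exchange factor that recycles HSP70, had 11.79, 10.74, 12.44, 12.19 and 12.41 in RCO and 9.34, 9.35, 9.26, 9.51 and 8.92 in SWOP. It rose 6.22-fold with the smallest limma adjusted p of any named gene (log2 2.64 ± 0.26, adjusted p = 4.74e-05). HSP70.2, the pig gene for the main stress-inducible HSP70, had 12.75, 11.37, 13.84, 13.92 and 14.12 in RCO and 10.85, 10.51, 10.26, 10.52 and 10.15 in SWOP (log2 difference 2.74 ± 0.43, limma adjusted p = 0.00169). Near-identical HSP70 copies could share the signal of its probe set.

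In all 4 genes the groups did not overlap and RCO replicate 2 was the lowest RCO array. All 4 kept their calls in every alternative tried. SWOP stood close to control, with differences of −0.27 for DNAJB1, 0.13 for HSPH1 and −0.15 for HSP70.2 (log2), none of them called by limma.

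Few other chaperones were called. Of 37 cytosolic heat shock proteins and cochaperones, 7 were called higher and 1 lower, with a median difference of 0.14 against 0.02 over all genes. The other 3 called higher were DNAJA1, BAG3 and PTGES3, at 0.85, 1.02 and 0.46 (log2), and the 1 lower was HSPB7, a small heat shock protein of muscle, at −0.48. These 4 were named after their values were seen. In 6 of the 37 genes all RCO arrays lay above all SWOP arrays, and in none below, against 3.28% and 4.01% of all genes. Against control 9 of the 37 were higher and 0 lower in RCO, and 5 were higher and 1 lower in SWOP. Over all genes 11.3% were higher and 4.26% lower in RCO, and 4.66% and 3.5% in SWOP. The mean of the list was 0.52 to 0.72 above the SWOP mean in RCO replicates 1, 3, 4 and 5 and 0.08 below it in RCO replicate 2 (log2).

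**Figure D2:**
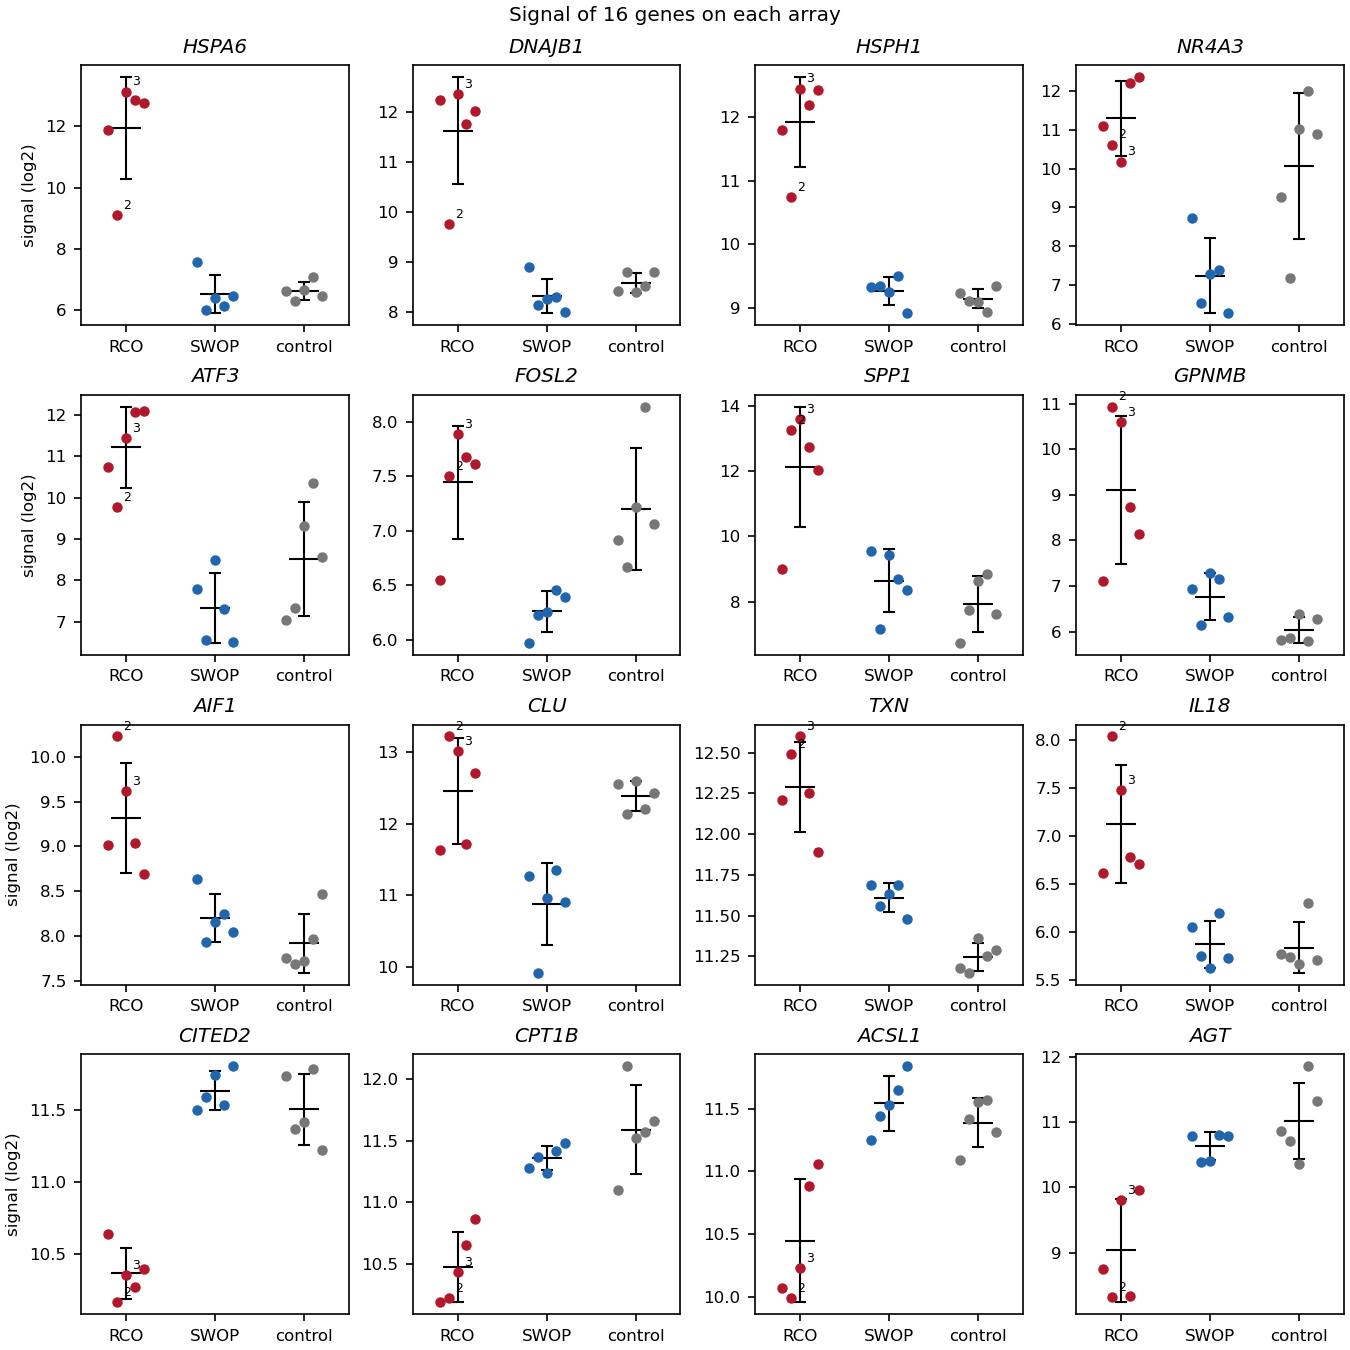
Log2 signal of 16 genes on each array in RCO (red), SWOP (blue) and control (grey). Each point is 1 pig, the bars show the mean and SD of 5 pigs, and the numbers 2 and 3 mark those RCO replicates. RCO replicate 2 is the lowest RCO array for HSPA6, DNAJB1 and HSPH1 and among the 2 highest for SPP1, GPNMB, AIF1 and CLU.

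Immediate early genes, whose transcripts appear within minutes to hours of a stimulus, also held very large differences. NR4A3, an orphan nuclear receptor of the NR4A family, had log2 signals of 11.09, 10.62, 10.18, 12.22 and 12.36 in RCO and 8.73, 6.53, 7.29, 7.40 and 6.27 in SWOP. It was 16.6-fold higher in RCO (log2 4.05 ± 0.72, limma adjusted p = 0.00366), with no overlap. Its other probe set was also called higher, and the mean of both differed by 2.81 (log2). The 5 controls spread from 7.18 to 11.99 around a mean of 10.07. NR4A3 was 1.22 above control in RCO and 2.83 below control in SWOP (log2, limma adjusted p = 0.287 and adjusted p = 0.0264), so SWOP was the further of the 2 from control.

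ATF3, a stress-induced transcription factor of the ATF/CREB family, stood above control in RCO. It had 10.75, 9.77, 11.43, 12.06 and 12.09 in RCO and 7.80, 6.55, 8.50, 7.32 and 6.50 in SWOP, without overlap (log2 difference 3.89 ± 0.56, 14.8-fold, limma adjusted p = 0.00104). It was 2.69 above control in RCO and 1.19 below control in SWOP (log2, limma adjusted p = 0.00542 and adjusted p = 0.182). FOSL2, a partner of JUN in the AP-1 transcription factor, had 6.55, 7.50, 7.89, 7.68 and 7.61 in RCO and 5.97, 6.23, 6.26, 6.46 and 6.39 in SWOP (log2 difference 1.18 ± 0.23, limma adjusted p = 0.00595). All RCO arrays were above all SWOP arrays, RCO replicate 1 by the least. FOSL2 was 0.24 above control in RCO and 0.94 below control in SWOP (log2, limma adjusted p = 0.537 and adjusted p = 0.0241).

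FOS and BTG2, an AP-1 subunit and an antiproliferative gene, had wider spreads. FOS had 11.10, 9.88, 11.55, 10.95 and 9.48 in RCO and 7.50, 6.55, 10.47, 9.01 and 7.21 in SWOP (log2 difference 2.44 ± 0.75, limma adjusted p = 0.045). SWOP replicate 3 exceeded 2 RCO arrays, and the call of FOS was lost in 7 of 10 fits without 1 array. BTG2 differed by 1.65 ± 0.45 (log2, limma adjusted p = 0.0279) and lost its call without RCO replicate 3 or SWOP replicate 2, 4 or 5. Over the list of 18 immediate early genes 9 were called higher and 0 lower, with a median difference of 0.80, and 17 of 18 differences were positive. The count was 3 without RCO replicate 3, without SWOP replicate 2 or 5, or without RCO replicates 2 and 3 together, 4 without SWOP replicate 4 and 5 without RCO replicate 4. The mean of the list was 0.79 to 1.53 above the SWOP mean on RCO arrays (log2), while the controls spread from 0.04 below it to 2.0 above it. Against control 1 of 18 was higher in RCO and 3 were lower in SWOP. Over all genes 11.3% were higher in RCO and 3.5% were lower in SWOP.

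Several early response genes were not called. DUSP1, a phosphatase that switches off MAP kinases, differed by 0.30 (95% interval −0.37 to 0.96). CYR61, a matricellular protein of the CCN family, differed by 1.25 (0.24 to 2.26, limma adjusted p = 0.103), ZFP36, which speeds the decay of cytokine mRNAs, by 0.43 (−0.17 to 1.02) and KLF4, a Krüppel-like transcription factor, by 0.25 (−0.09 to 0.60). RGS2, a brake on Gq signalling by G protein-coupled receptors, was not on the list but was among the largest differences. It had 10.41, 10.40, 11.38, 9.99 and 10.14 in RCO and 8.45, 8.88, 8.61, 8.30 and 7.36 in SWOP (log2 difference 2.14 ± 0.42, limma adjusted p = 0.00555), and the groups did not overlap. Its other 2 probe sets were not called, 1 of them had the opposite sign, and the mean of all 3 differed by 0.75.

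Endoplasmic reticulum stress genes were higher by smaller amounts. DDIT3, the transcription factor CHOP of the unfolded protein response, had log2 signals of 9.49, 7.91, 9.12, 9.42 and 9.44 in RCO and 8.04, 7.51, 7.49, 7.59 and 7.58 in SWOP (log2 difference 1.43 ± 0.32, limma adjusted p = 0.0108). Only RCO replicate 2 fell within the SWOP range, and without RCO replicates 2 and 3 the difference was 1.81. ERO1A, the oxidase that drives disulfide bond formation, was 0.66 ± 0.12 higher (limma adjusted p = 0.00409), with all RCO arrays above all SWOP arrays. MANF, a secreted factor induced by endoplasmic reticulum stress, was 0.54 ± 0.13 higher (limma adjusted p = 0.0158; 0.40 and not called without RCO replicates 2 and 3), and HSPA5, the lumenal HSP70 chaperone also called BiP, was 0.58 ± 0.15 higher (limma adjusted p = 0.0206).

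HSPA5 had 11.83, 12.57, 13.04, 12.64 and 12.49 in RCO and 11.82, 11.90, 12.00, 12.17 and 11.80 in SWOP. RCO replicate 1 lay inside the SWOP range and the other 4 above it. The HSPA5 call was lost without RCO replicate 3, SWOP replicate 2 or SWOP replicate 5, and without RCO replicates 2 and 3 together its difference was 0.38. Of 21 genes of the list 8 were called higher and 0 lower, with a median of 0.45 and 19 positive differences. The count was 3 without RCO replicate 3, SWOP replicate 2 or SWOP replicate 5, 4 without SWOP replicate 3, 5 without RCO replicate 2 or SWOP replicate 4, and 3 without RCO replicates 2 and 3 together.

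In the secretory pathway 6 of 47 genes were higher (12.8%, against 5.54% of all genes) and 0 lower, with a median of 0.10. SSR4, a subunit of the complex that helps move proteins into the endoplasmic reticulum, had 12.32, 12.26, 12.35, 11.91 and 11.61 in RCO and 11.63, 11.15, 11.18, 11.27 and 11.02 in SWOP (log2 difference 0.84 ± 0.14, limma adjusted p = 0.00235). RCO replicate 5 fell just below SWOP replicate 1, and the call of SSR4 remained in every alternative. KDELR3, a receptor that returns chaperones to the endoplasmic reticulum, and TMED3, a cargo receptor, differed by 0.95 ± 0.27 and 0.93 ± 0.27, and by 0.39 and 0.38 without RCO replicates 2 and 3 (limma adjusted p = 0.0341 and adjusted p = 0.0328 with all arrays). They lost their calls in 6 and 7 of 10 fits without 1 array. The list held 1 call without those 2 arrays together, without RCO replicate 2 or 3, or without SWOP replicate 2, 4 or 5. It held 2 without SWOP replicate 3, 3 without SWOP replicate 1 and 10 without RCO replicate 5.

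Matricellular proteins, which sit in the matrix and signal to cells during repair, were higher in RCO with very unequal arrays. SPP1, which encodes osteopontin, had log2 signals of 9.0, 13.27, 13.60, 12.75 and 12.05 in RCO and 9.57, 7.17, 9.42, 8.70 and 8.36 in SWOP. RCO replicate 1 lay within the SWOP range and the other 4 RCO arrays were above every SWOP array. SPP1 was 11.2-fold higher (log2 3.49 ± 0.65, limma adjusted p = 0.00451), and 2.62 without RCO replicates 2 and 3, still called by limma. It was 4.21 above control in RCO and 0.72 in SWOP (log2, limma adjusted p = 0.00104 and adjusted p = 0.496).

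TNC, the repair-associated matrix protein tenascin C, had 7.12, 11.87, 11.14, 9.04 and 7.90 in RCO and 6.64, 6.68, 7.20, 7.33 and 6.12 in SWOP (log2 difference 2.62 ± 0.64, limma adjusted p = 0.0169). RCO replicates 2 and 3 were far above the rest, and without them the difference was 1.23 and not called (limma adjusted p = 0.0738, range over the alternatives 0.0029 to 0.0794). The call was also lost without SWOP replicate 5. COMP, a thrombospondin family protein, had 7.73, 7.14, 6.78, 6.73 and 6.54 in RCO and 6.18, 6.07, 6.27, 5.92 and 6.08 in SWOP (log2 difference 0.88 ± 0.16, limma adjusted p = 0.00404). All RCO arrays were higher, RCO replicate 1 the most. The other COMP probe set was not called, and the mean of both differed by 0.54.

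TNXB, which encodes tenascin X of the mature matrix, was lower, with 8.26, 8.60, 8.84, 9.38 and 9.08 in RCO and 9.35, 10.03, 9.92, 9.85 and 9.96 in SWOP (log2 difference −0.99 ± 0.20, limma adjusted p = 0.00649). RCO replicate 4 exceeded SWOP replicate 1, and the other RCO arrays were below all SWOP arrays. Of 13 matricellular genes 6 were higher and 1, TNXB, was lower, with a median of 1.05. The median was 0.50 without RCO replicates 2 and 3, and 3 were higher then and also without SWOP replicate 5.

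Structural matrix genes differed less. Of 31 genes of the extracellular matrix and its turnover 2 were higher and 1 was lower, with a median of 0.28. These calls were 6.45% and 3.23% of the list, against 5.54% and 6.4% of all genes. COL8A1, a short-chain collagen of vessels and injured tissue, was 1.16 ± 0.31 higher (limma adjusted p = 0.0241) and SERPINH1, the collagen chaperone HSP47, 0.60 ± 0.19 (limma adjusted p = 0.0462), while COL15A1, a basement membrane collagen, was 0.71 ± 0.21 lower (limma adjusted p = 0.0368). They lost their calls in 4, 9 and 5 of 10 fits without 1 array (COL8A1, SERPINH1 and COL15A1). With the mean of its probe sets COL8A1 differed by 0.64. The mean of the list lay 1.08 and 0.91 above the SWOP mean in RCO replicates 2 and 3, 0.27 and 0.15 above it in replicates 4 and 5 and 0.43 below it in replicate 1 (log2). Without RCO replicate 1, 10 genes were higher. Without RCO replicate 5 the count was 5, and without RCO replicates 2 and 3, together or singly, it was 0. It was also 0 without SWOP replicate 2 or 5 and 1 without SWOP replicate 1, 3 or 4, and the lower count was 0 or 1. The mean of the 10 fibroblast markers moved alike, at 1.06 and 0.95 above the SWOP mean in RCO replicates 2 and 3 and 0.25 below it in replicate 1. Of the 10, S100A4 alone was called, 1.55 ± 0.38 higher (limma adjusted p = 0.0164), and without RCO replicates 2 and 3 it was not called at 0.84.

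Macrophage and monocyte markers were higher in RCO. GPNMB, a membrane glycoprotein of lipid-laden and repair macrophages, had log2 signals of 7.11, 10.93, 10.59, 8.73 and 8.14 in RCO and 6.93, 6.14, 7.29, 7.16 and 6.32 in SWOP (log2 difference 2.33 ± 0.52, limma adjusted p = 0.0111). Only RCO replicate 1 overlapped with SWOP, and the difference without RCO replicates 2 and 3 was 1.23. The mean of its 5 probe sets differed by 0.91, and 1 of the other 4 was called. GPNMB lost its call when RCO and SWOP were fitted alone (limma adjusted p = 0.063, range 0.0017 to 0.063). AIF1, a calcium-binding protein of macrophages also called IBA1, had 9.01, 10.23, 9.62, 9.04 and 8.69 in RCO and 8.64, 7.93, 8.15, 8.24 and 8.04 in SWOP (log2 difference 1.12 ± 0.23, limma adjusted p = 0.00817). All RCO arrays were above all SWOP arrays for AIF1, and without RCO replicates 2 and 3 it was still called at 0.71.

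LGALS3, the macrophage lectin galectin-3, ran from 5.68 in RCO replicate 1 to 11.05 in RCO replicate 2, against 6.13 to 7.06 in SWOP (log2 difference 2.38 ± 0.64, limma adjusted p = 0.0246). RCO replicate 1 was below every SWOP array. The call was lost without RCO replicate 2, RCO replicate 3, or SWOP replicate 2, 3 or 5. FCGR1A, the high-affinity IgG receptor, was more even, at 6.14 to 6.33 in RCO and 5.47 to 5.94 in SWOP (log2 difference 0.59 ± 0.14, limma adjusted p = 0.0157), without overlap. Without RCO replicates 2 and 3 FCGR1A differed by 0.56 and was not called (limma adjusted p = 0.0514, range 0.0133 to 0.0514).

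Of 14 macrophage and monocyte markers 8 were called higher and 0 lower, all 14 differences were positive, and the median was 0.84. The mean log2 signal of the list was 8.19 to 9.89 on RCO arrays, against 7.56 to 8.31 on SWOP arrays and 7.54 to 8.13 on control arrays, and none of the markers was dim. RCO replicates 2 and 3 were 1.97 and 1.42 above the SWOP mean, and replicates 1, 4 and 5 were 0.27, 0.63 and 0.47 above it. Without replicates 2 and 3 together 2 markers were called and the median was 0.39. The count was 3 or 4 without RCO replicate 2 or 3 or SWOP replicate 2, 3, 4 or 5. In bulk tissue more cells of a type and more RNA per cell cannot be told apart. Of 9 T and NK cell markers and 2 B cell markers none was called by limma.

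**Figure D3:**
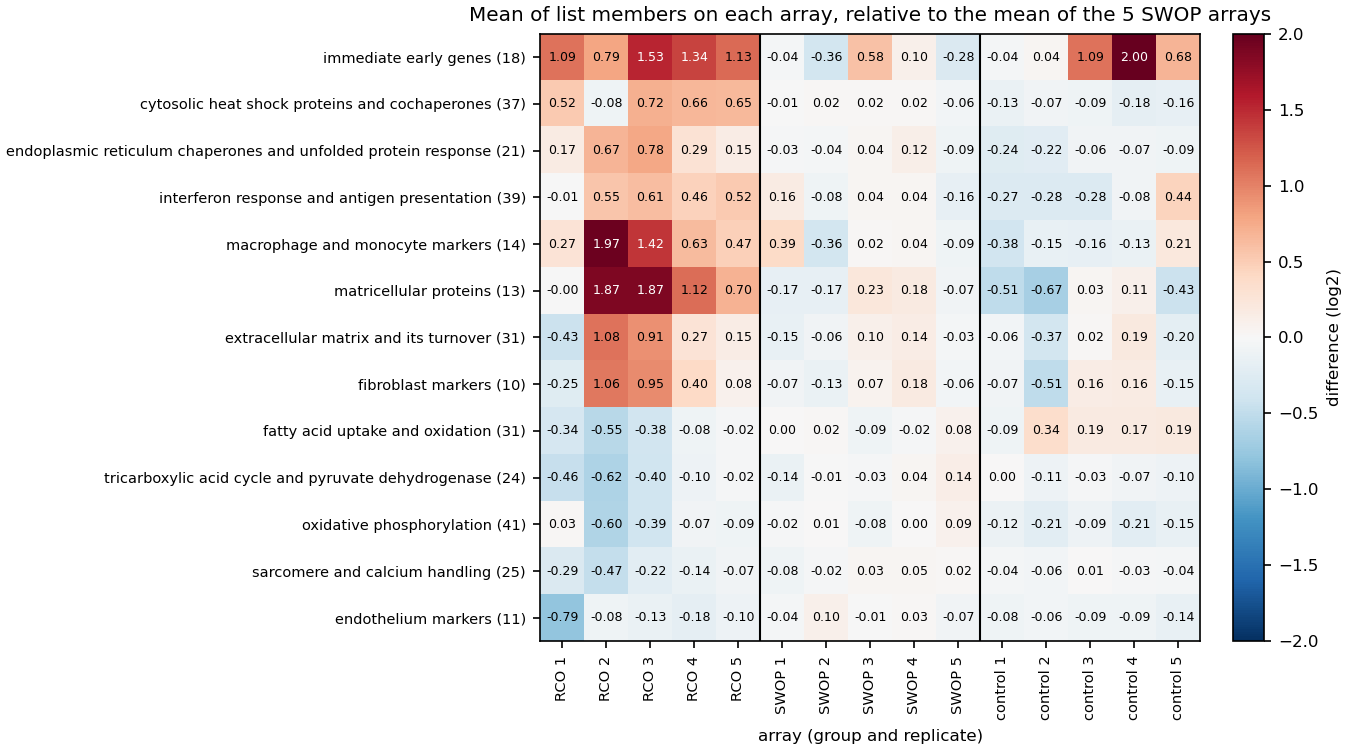
Mean log2 signal of the members of 13 gene lists on each RCO, SWOP and control array, given relative to the mean of the 5 SWOP arrays (colour and printed value). The number of genes measured stands in brackets. RCO replicates 2 and 3 are highest for macrophage, matricellular, matrix and fibroblast lists, RCO replicate 2 is lowest of the RCO arrays for heat shock genes, and RCO replicate 1 is lowest for the endothelium list.

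Inflammatory mediators included a pair from the inflammasome pathway. IL18, a cytokine that caspase-1 cuts to its active form, had log2 signals of 6.61, 8.04, 7.48, 6.78 and 6.71 in RCO and 6.05, 5.75, 5.62, 6.20 and 5.73 in SWOP (log2 difference 1.25 ± 0.22, limma adjusted p = 0.00366). No arrays overlapped, and without RCO replicates 2 and 3 it was called at 0.83. CASP1, which encodes caspase-1, had 7.96, 8.97, 8.68, 7.70 and 7.90 in RCO and 7.79, 6.72, 7.28, 7.08 and 6.68 in SWOP (log2 difference 1.13 ± 0.26, limma adjusted p = 0.0116). RCO replicate 4 was just below SWOP replicate 1, and without RCO replicates 2 and 3 the difference was 0.74 and not called (limma adjusted p = 0.0707, range 0.0048 to 0.0707).

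CXCL14, a chemokine, showed the most unequal values, with 5.23, 11.73, 9.38, 7.17 and 6.63 in RCO and 5.06 to 5.92 in SWOP (log2 difference 2.60 ± 0.77, limma adjusted p = 0.0387). RCO replicate 1 lay within the SWOP range. The call was lost in 6 of 10 fits without 1 array, and the difference was 0.92 without RCO replicates 2 and 3. Of 36 cytokine, chemokine and adhesion genes 4 were higher and 1 was lower (11.1% and 2.78%, against 5.54% and 6.4% of all genes). Their median difference was 0.34. In 9 of the 36 all RCO arrays lay above all SWOP arrays, against 3.28% of all genes. The higher count was 1 without RCO replicate 2 or 3, together or singly, and without SWOP replicate 2, 3, 4 or 5.

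Genes of the immunoproteasome and interferon response were higher in RCO. PSMB10, a catalytic subunit of the immunoproteasome, had log2 signals of 9.22, 8.91, 9.02, 9.50 and 8.83 in RCO and 8.84, 8.49, 8.26, 8.45 and 8.22 in SWOP (log2 difference 0.64 ± 0.14, limma adjusted p = 0.00854). RCO replicate 5 was just below SWOP replicate 1, and the other RCO arrays were above every SWOP array. PSME1 and PSME2, the subunits of the activator that caps this proteasome, were 0.52 ± 0.12 and 0.59 ± 0.14 higher (limma adjusted p = 0.0116 and adjusted p = 0.0164), and IFI35, an interferon-induced protein, 0.59 ± 0.13 higher (limma adjusted p = 0.00963). Without RCO replicates 2 and 3 PSMB10, PSME1, PSME2 and IFI35 were called at 0.73, 0.55, 0.59 and 0.52. PSME2 lost its call without SWOP replicate 5.

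Of 39 genes of the interferon response and antigen presentation 10 were higher and 0 lower, with a median of 0.46 and 34 positive differences. The mean of the list was 0.46 to 0.61 above the SWOP mean in RCO replicates 2 to 5 and 0.01 below it in replicate 1. Without RCO replicate 1, 18 genes were called higher. The count was 6 without RCO replicate 2 or 3, 5 without SWOP replicate 3, 4 without SWOP replicate 2 or 4 and 3 without SWOP replicate 5. It was 4 without RCO replicates 2 and 3 together.

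CLU, which encodes the secreted chaperone clusterin, had log2 signals of 11.63, 13.22, 13.01, 11.72 and 12.71 in RCO and 11.27, 9.92, 10.96, 11.36 and 10.91 in SWOP. All RCO arrays were above all SWOP arrays, and CLU was 2.98-fold higher (log2 1.57 ± 0.28, limma adjusted p = 0.00361). The control arrays, at 12.13 to 12.60, lay with RCO. CLU was 0.07 above control in RCO and 1.5 below control in SWOP (log2, limma adjusted p = 0.9 and adjusted p = 0.00918). Haptoglobin, HP, which binds free hemoglobin, stood likewise, 0.18 above control in RCO and 0.32 below in SWOP (limma adjusted p = 0.323 and adjusted p = 0.0785). Its difference between RCO and SWOP was 0.50 ± 0.11 (limma adjusted p = 0.0113). Of 25 complement and acute phase genes 3 were higher (12%, against 5.54% of all genes) and 0 lower, with a median of 0.19.

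Redox genes went both ways. TXN, the cytosolic thioredoxin that reduces protein disulfides, had log2 signals of 12.21, 12.49, 12.60, 12.25 and 11.89 in RCO and 11.69, 11.56, 11.63, 11.69 and 11.48 in SWOP (log2 difference 0.68 ± 0.12, limma adjusted p = 0.00395). The groups did not overlap, and the call remained in every alternative. Catalase, CAT, which breaks down hydrogen peroxide, had 10.48, 10.83, 10.90, 11.05 and 10.98 in RCO and 11.35, 11.52, 11.27, 11.40 and 11.43 in SWOP (log2 difference −0.55 ± 0.11, limma adjusted p = 0.0066). Every RCO array was below every SWOP array.

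HMOX1, the heme oxygenase linked to late preconditioning, had 7.67, 10.38, 9.67, 7.89 and 8.43 in RCO and 7.55, 7.59, 7.47, 7.32 and 7.33 in SWOP (log2 difference 1.36 ± 0.38, limma adjusted p = 0.0312). All RCO arrays were above all SWOP arrays, replicates 2 and 3 by the most. Its call was lost without RCO replicate 2 or 3 or SWOP replicate 2, 3, 4 or 5, and without RCO replicates 2 and 3 together the difference was 0.54. GLRX, a glutaredoxin, was 0.59 ± 0.16 higher (limma adjusted p = 0.0277) and TXNRD1, the reductase that recharges thioredoxin, was 0.37 ± 0.11 lower (limma adjusted p = 0.0308). Both lost their calls in 5 of 10 fits without 1 array. The other 3 called higher were GPX1, a glutathione peroxidase, and GP91-PHOX and CYBA, the membrane subunits of the phagocyte NADPH oxidase, at 1.69, 1.19 and 1.04 (log2), named after their values were seen.

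Of 31 antioxidant and redox genes 6 were higher and 2 lower (19.4% and 6.45%, against 5.54% and 6.4% of all genes). Their median difference was 0.15. The higher count was 1 or 2 without RCO replicate 2 or 3, together or singly, or without SWOP replicate 2, 3, 4 or 5. The lower count was 4 without RCO replicate 5 and 1 without SWOP replicate 2, 3, 4 or 5. The ferritin subunit FTH1 differed by 0.05 (95% interval −0.09 to 0.18) and FTL by 0.52 (0.14 to 0.90, limma adjusted p = 0.0726), TXNIP, the inhibitor of thioredoxin, by −0.21 (−0.50 to 0.07), and the mitochondrial peroxidase PRDX3 by −0.28 (−0.51 to −0.04, limma adjusted p = 0.116). None of these 4 was called. FTL was called without RCO replicate 4, RCO replicate 5 or SWOP replicate 1, and PRDX3 without RCO replicate 5.

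**Figure D4:**
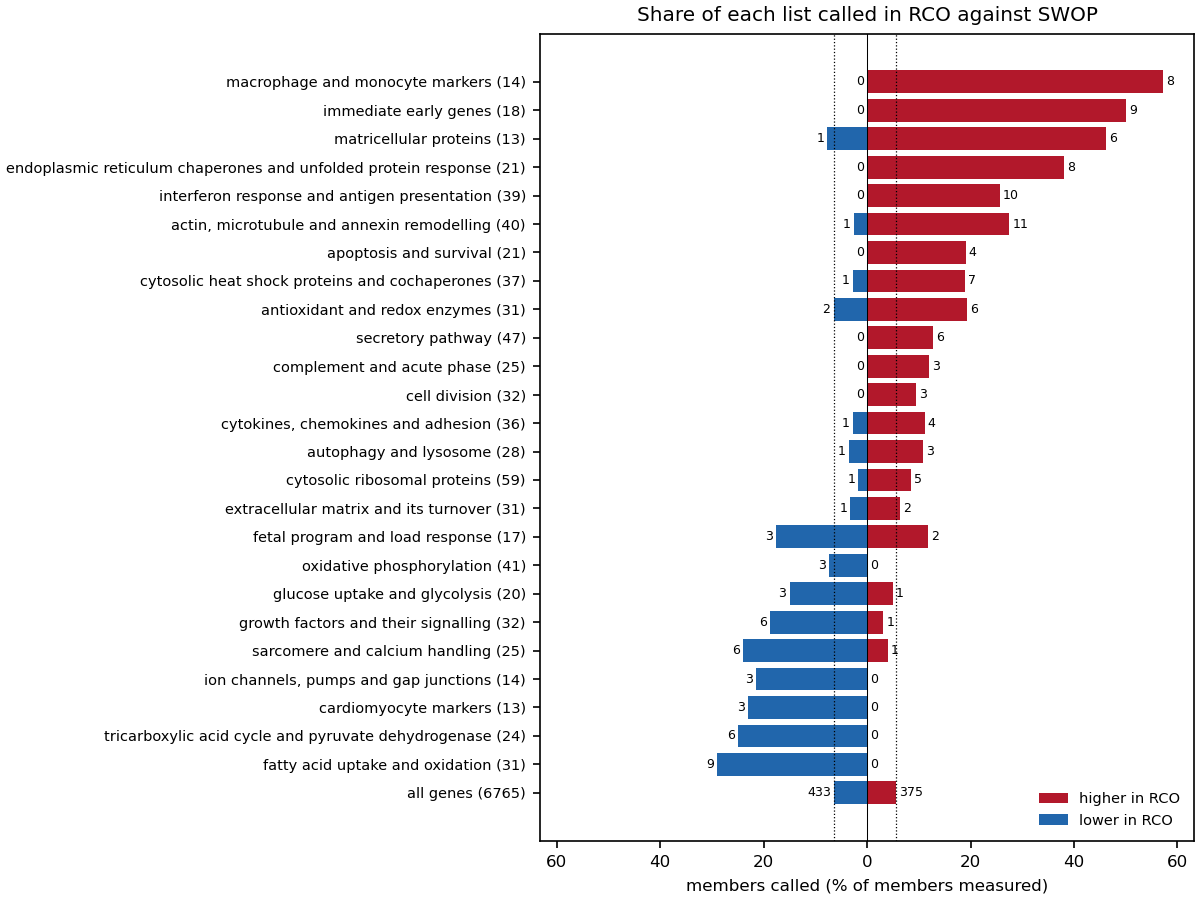
Share of the measured members of each list called higher (red, to the right) or lower (blue, to the left) in RCO against SWOP by limma, with the number of genes beside each bar and the number measured in brackets. Lists with at least 3 calls are shown, and dotted lines mark the shares over all genes, 5.54% higher and 6.4% lower. Macrophage, immediate early and matricellular lists have the largest shares higher, and fatty acid and tricarboxylic acid cycle lists the largest shares lower.

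Fatty acid metabolism, the main fuel pathway of the adult heart, was lower in RCO. ACSL1, which activates long-chain fatty acids to acyl-CoA, had log2 signals of 10.07, 9.99, 10.23, 10.88 and 11.06 in RCO and 11.25, 11.44, 11.53, 11.65 and 11.84 in SWOP. Every RCO array was below every SWOP array, and ACSL1 fell 2.14-fold (log2 difference −1.10 ± 0.19, limma adjusted p = 0.00283). CPT1B, the muscle enzyme that admits fatty acids to mitochondria, had 10.19, 10.22, 10.43, 10.65 and 10.86 in RCO and 11.28, 11.37, 11.24, 11.42 and 11.48 in SWOP (log2 difference −0.89 ± 0.18, limma adjusted p = 0.00605). LPL, the lipase that releases fatty acids from lipoproteins, had 10.95, 10.73, 10.88, 11.19 and 11.77 in RCO and 11.66, 12.07, 12.01, 11.88 and 12.26 in SWOP (log2 difference −0.87 ± 0.18, limma adjusted p = 0.00842).

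CPT1B did not overlap between the groups, and for LPL only RCO replicate 5 reached the SWOP range. ECH1, an auxiliary enzyme of beta oxidation, was 0.63 ± 0.15 lower, also without overlap (limma adjusted p = 0.0158). SWOP stood near control for all 4, at 0.15, −0.23, −0.11 and −0.15 (log2, ACSL1, CPT1B, LPL and ECH1), and RCO was 0.94, 1.12, 0.98 and 0.78 below control. ACSL1, CPT1B and LPL were still called without RCO replicates 2 and 3, at −0.87, −0.79 and −0.67, and ECH1 was not, at −0.47. Of 31 genes 9 were lower and 0 higher, with a median of −0.33 and 24 negative differences. In 6 of the 31 every RCO array was below every SWOP array, and in 1 above, against 4.01% and 3.28% of all genes. The count was 4 without RCO replicate 2 or 3 or SWOP replicate 2 or 5, and 3 without RCO replicates 2 and 3 together.

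The tricarboxylic acid cycle list was lower by small amounts, with all 24 differences negative and a median of −0.30. Of these, 6 were called lower and 0 higher. OGDH, the 2-oxoglutarate dehydrogenase, was 0.56 ± 0.17 lower (limma adjusted p = 0.0398), GOT2, the mitochondrial aspartate aminotransferase, 0.47 ± 0.14 (limma adjusted p = 0.036), DLD, the shared dihydrolipoamide dehydrogenase, 0.46 ± 0.13 (limma adjusted p = 0.036), and IDH3B, a subunit of isocitrate dehydrogenase, 0.28 ± 0.08 (limma adjusted p = 0.0305). OGDH, GOT2 and DLD lost their calls in 7 and IDH3B in 5 of 10 fits without 1 array. RCO replicates 1, 2 and 3 were 0.46, 0.62 and 0.40 below the SWOP mean of the list and replicates 4 and 5 were 0.10 and 0.02 below it. The number of calls rested on single arrays: it was 11 without RCO replicate 4 or 5, 3 without RCO replicate 1, 1 without RCO replicate 3 or SWOP replicate 3, and 0 without RCO replicate 2, SWOP replicate 2, 4 or 5, or RCO replicates 2 and 3 together.

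Of 41 subunits of oxidative phosphorylation 3 were lower and 0 higher, with a median of −0.22 and 38 negative differences. The share called lower, 7.3%, was near the 6.4% of all genes. Against control the median of the list was −0.08 in RCO and 0.14 in SWOP (log2). ATP5J, a coupling subunit of ATP synthase, averaged 11.13 ± 0.12 in RCO and 11.47 ± 0.05 in SWOP (SD, n = 5 each, log2 difference −0.34 ± 0.08, limma adjusted p = 0.0152). The groups did not overlap. The other called subunits were NDUFA10 and NDUFV3 of complex I, at −0.46 and −0.45, which lost their calls in 5 and 6 of 10 fits without 1 array. ATP5J lost its call only without RCO replicates 2 and 3 together, among the alternatives tried. Without RCO replicates 2 and 3 the median of the list was −0.04 and none was called by limma. The count was 1 without RCO replicate 2 or 3 or SWOP replicate 2, 4 or 5, 5 without RCO replicate 1, 7 without RCO replicate 4 and 8 without RCO replicate 5.

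Glucose metabolism was mixed. GYS1, the muscle glycogen synthase, was 0.68 ± 0.19 lower, SLC2A4, the insulin-regulated glucose transporter, 0.63 ± 0.19 lower and HK1, a hexokinase, 0.39 ± 0.12 lower, while LDHA, a subunit of lactate dehydrogenase, was 0.53 ± 0.16 higher (limma adjusted p = 0.0312, adjusted p = 0.0432, adjusted p = 0.0398 and adjusted p = 0.0406). Each of the 4 lost its call in 6 to 8 of 10 fits without 1 array. With the mean of its probe sets SLC2A4 differed by −0.32 and was not called. LDHA was 1.52 above control in RCO and 0.99 in SWOP (log2, limma adjusted p = 4.31e-05 and adjusted p = 0.00646). GYS1 and HK1 were 0.13 and 0.08 below control in RCO and 0.55 and 0.30 above it in SWOP, none of them called by limma. SLC2A4 was 0.67 below control in RCO and 0.04 below it in SWOP (limma adjusted p = 0.0306 and adjusted p = 0.913). The 4 called genes came from 20 on the list, whose median was −0.20. Against control the median of the list was −0.006 in RCO and 0.25 in SWOP (log2). The lower count was 1 without RCO replicate 1 or 3 and 0 without RCO replicate 2, SWOP replicate 2, 3, 4 or 5, or RCO replicates 2 and 3 together.

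The hypoxia regulators with calls were both lower. CITED2, which restrains hypoxia-inducible factor by competing for its coactivators, had log2 signals of 10.64, 10.16, 10.35, 10.27 and 10.39 in RCO and 11.50, 11.59, 11.75, 11.54 and 11.81 in SWOP. Every RCO array was below every SWOP array, and CITED2 fell 2.42-fold (log2 difference −1.28 ± 0.15, limma adjusted p = 0.000188). It was 1.15 below control in RCO and 0.13 above control in SWOP (log2, limma adjusted p = 0.000283 and adjusted p = 0.607), and the call remained in every alternative. EGLN1, the prolyl hydroxylase that marks hypoxia-inducible factor for degradation, was 0.48 ± 0.11 lower without overlap (limma adjusted p = 0.0126), and without RCO replicates 2 and 3 it was not called at −0.43 (limma adjusted p = 0.053, range 0.0036 to 0.053). Of 15 hypoxia genes 2 were lower (13.3%, against 6.4% of all genes) and 0 higher, with a median of 0.13. Without RCO replicate 1, 4 were higher.

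Hormone and growth factor genes were lower in several cases. AGT, which encodes angiotensinogen, the precursor of the angiotensins, had log2 signals of 8.75, 8.32, 9.80, 8.33 and 9.96 in RCO and 10.79, 10.39, 10.41, 10.80 and 10.78 in SWOP. No RCO array reached the SWOP range, and AGT fell 3.04-fold (log2 difference −1.60 ± 0.38, limma adjusted p = 0.0147). IGF1R, the receptor for insulin-like growth factors, had 7.14, 7.85, 7.78, 8.16 and 8.03 in RCO and 8.72, 8.29, 8.76, 8.53 and 8.69 in SWOP (log2 difference −0.81 ± 0.16, limma adjusted p = 0.00584), with every RCO array lower. Its other probe set was not called, and the mean of both differed by −0.45. IGFBP5, a binding protein of insulin-like growth factors, was 1.10 ± 0.30 lower (limma adjusted p = 0.0253), a call lost without RCO replicate 3 or SWOP replicate 1, 2 or 3. FGF13, an intracellular regulator of sodium channels, was 0.74 ± 0.18 lower (limma adjusted p = 0.0149), and without RCO replicates 2 and 3 it was not called at −0.44. Of 32 genes of growth factor signalling 6 were lower and 1 higher, with a median of 0.05, and 3 were lower without RCO replicate 3 or SWOP replicate 2.

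Cardiac transcription and calcium genes were lower by less than 2-fold. GATA4, a transcription factor of cardiomyocytes, had log2 signals of 9.0, 8.76, 9.09, 9.40 and 9.37 in RCO and 9.55, 10.12, 9.94, 9.88 and 10.02 in SWOP (log2 difference −0.78 ± 0.14, limma adjusted p = 0.00358). The groups did not overlap. GATA4 was 0.22 below control in RCO and 0.56 above control in SWOP (log2, limma adjusted p = 0.319 and adjusted p = 0.0233). HRC, a calcium-binding protein of the sarcoplasmic reticulum, had 9.14, 8.84, 9.11, 9.35 and 9.33 in RCO and 9.60, 10.09, 9.80, 9.82 and 10.11 in SWOP, also without overlap (log2 difference −0.73 ± 0.14, limma adjusted p = 0.00451). Both kept their calls in every alternative.

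RYR2, the calcium release channel, was 0.61 ± 0.19 lower (limma adjusted p = 0.0494) and lost the call in 7 of 10 fits without 1 array. TTN, which encodes titin, was 0.29 ± 0.07 lower (limma adjusted p = 0.0189), and ACTC1, the cardiac alpha actin, had 13.48, 13.83, 13.66, 13.87 and 13.76 in RCO and 13.97, 14.06, 14.06, 14.13 and 14.11 in SWOP (log2 difference −0.35 ± 0.08, limma adjusted p = 0.013). Every RCO array was below every SWOP array for ACTC1, and its call was lost when RCO and SWOP were fitted alone (limma adjusted p = 0.0534, range over the alternatives 0.0088 to 0.0534). TTN lost its call without SWOP replicate 2 or 5, or without RCO replicates 2 and 3 together. These 3 were also the lower ones among the 13 cardiomyocyte markers. Of 25 sarcomere and calcium genes 6 were lower and 1 higher, with a median of −0.23 and 22 negative differences. The lower count was 3 without RCO replicate 3 or SWOP replicate 4, 2 without SWOP replicate 2 or 5, and 2 without RCO replicates 2 and 3 together.

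ANKRD1, a stress-responsive titin-binding protein, was higher, with 13.83, 13.87, 14.21, 14.04 and 14.12 in RCO and 13.84, 13.55, 13.53, 13.57 and 13.33 in SWOP (log2 difference 0.45 ± 0.11, limma adjusted p = 0.0198). RCO replicate 1 was just below SWOP replicate 1, and the other 4 were above every SWOP array. The call of ANKRD1 was lost without RCO replicate 3, SWOP replicate 5, or RCO replicates 2 and 3 together. RCO equalled control, at a mean of 14.01 against 14.02, and SWOP was 0.45 below it (limma adjusted p = 0.0251). Among gap junction genes GJA1, the connexin of working muscle, was 0.30 ± 0.09 lower and GJA5, the atrial and conduction connexin, 0.69 ± 0.21 lower (limma adjusted p = 0.0312 and adjusted p = 0.039). GJA1 was 0.35 below control in RCO and 0.04 below it in SWOP (log2, limma adjusted p = 0.0149 and adjusted p = 0.79). GJA5 was 0.01 above control in RCO and 0.70 above it in SWOP (log2, limma adjusted p = 0.982 and adjusted p = 0.0443). GJA1 and GJA5 lost their calls in 6 and 7 of 10 fits without 1 array. With CLCN3, a chloride transporter of vesicles, at −0.33, they made up 3 lower and 0 higher of 14 ion channel, pump and gap junction genes. That count was 0 without RCO replicate 2 or SWOP replicate 3, 4 or 5, and 1 without RCO replicate 3 or SWOP replicate 2. Of 17 fetal program and load response genes 2 were higher and 3 lower (11.8% and 17.6%, against 5.54% and 6.4% of all genes).

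Several actin-binding genes were higher together with the macrophage markers. The annexin ANXA1 was also called higher, at 1.01 (log2, limma adjusted p = 0.0162). CAPG, an actin filament capping protein, had log2 signals of 8.43, 11.05, 10.36, 9.28 and 8.70 in RCO and 8.50, 7.72, 8.11, 8.10 and 7.73 in SWOP (log2 difference 1.53 ± 0.37, limma adjusted p = 0.0153). LCP1, an actin bundler of leukocytes, had 6.82, 9.47, 8.97, 7.86 and 7.36 in RCO and 6.70, 6.49, 6.74, 6.8 and 6.59 in SWOP (log2 difference 1.43 ± 0.34, limma adjusted p = 0.0146). In both RCO replicates 2 and 3 were highest and replicate 1 lowest, and without replicates 2 and 3 the differences were 0.77 and 0.68, of which LCP1 was still called. Both lost their calls when RCO and SWOP were fitted alone (limma adjusted p = 0.069, range 0.0023 to 0.069, for CAPG and adjusted p = 0.0741, range 0.0017 to 0.0741, for LCP1). LGALS1, the lectin galectin-1, was 0.73 ± 0.15 higher (limma adjusted p = 0.00702), with all RCO arrays above all SWOP arrays, and was called at 0.50 without those 2 arrays. Of 40 genes of actin, microtubule and annexin remodelling 11 were higher and 1 lower, with a median of 0.30. The 1 lower was GSN, at −0.54 (log2, limma adjusted p = 0.018). ANXA1 and GSN were named after their values were seen. The higher count was 18 without RCO replicate 1, 6 without RCO replicate 2 or 3 or SWOP replicate 2, 3 or 5, and 2 without RCO replicates 2 and 3 together. The part of macrophage RNA in these differences was not tested.

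Cell division genes held 3 calls, all higher, among 32 measured (median 0.32). These were 9.4% of the list, against 5.54% of all genes called higher. CKS2, a partner of cyclin-dependent kinases, had log2 signals of 9.45, 9.94, 9.88, 9.54 and 8.81 in RCO and 8.67, 8.85, 8.14, 8.23 and 8.27 in SWOP (log2 difference 1.09 ± 0.22, limma adjusted p = 0.00594), and RCO replicate 5 alone reached the SWOP range. TYMS, which makes thymidylate for DNA synthesis, was 0.93 ± 0.19 higher (limma adjusted p = 0.00766) and GMNN, the replication licensing inhibitor geminin, 0.44 ± 0.09 higher (limma adjusted p = 0.00608). All 3 were still called without RCO replicates 2 and 3. The count was 5 without RCO replicate 1 and 12 without RCO replicate 5.

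The vascular lists were short. Of the endothelium markers 18.2% were called lower and of the smooth muscle markers 11.1%, against 6.4% of all genes. Of the 11 endothelium differences 9 were negative, at a median of −0.23. VWF, the von Willebrand factor of endothelium, had 6.31, 8.49, 8.07, 7.93 and 7.48 in RCO and 8.75, 9.21, 8.38, 8.51 and 8.60 in SWOP (log2 difference −1.03 ± 0.29, limma adjusted p = 0.0306). RCO replicate 1 was lowest, and the mean of the 11 endothelium markers was 0.79 below the SWOP mean on that array and 0.08 to 0.18 below it on the other RCO arrays. VWF lost its call without SWOP replicate 2 or 5, without RCO replicate 1 and SWOP replicate 1 together, when RCO and SWOP were fitted alone, or with the mean of its probe sets, and its other 2 probe sets had the opposite sign. Of the 11 markers 2 were lower and 0 higher, with 0 lower without SWOP replicate 2 or 5 and 1 lower without RCO replicate 1, 2 or 3 or SWOP replicate 3 or 4. Without RCO replicate 1 and SWOP replicate 1 together 0 were lower. Of 9 smooth muscle markers only SMTN, which encodes smoothelin, was called, 0.67 ± 0.15 lower (limma adjusted p = 0.0123), and it lost the call without RCO replicates 2 and 3 or with the mean of its probe sets. DES, RGS5, CALD1 and ACTA2 differed by −0.14 (95% interval −0.46 to 0.17), −0.08 (−0.34 to 0.18), 0.45 (0.06 to 0.84) and 0.27 (−0.40 to 0.93). CALD1 was called without RCO replicate 1.

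Clock and glucocorticoid genes can follow the time of sampling, and 1 of them was called. BHLHE40, a repressor that also answers to stress and hypoxia, was that call among 7 clock genes, with log2 signals of 7.75, 8.09, 8.50, 9.08 and 9.03 in RCO and 6.40, 6.62, 7.19, 7.61 and 6.85 in SWOP (log2 difference 1.56 ± 0.28, limma adjusted p = 0.00404). Its other probe set was not called, and the mean of both differed by 0.91. The groups did not overlap. The clock genes PER1, CRY2, DBP and NFIL3 differed by 0.14 (95% interval −0.24 to 0.52), −0.31 (−0.79 to 0.16), −0.02 (−0.22 to 0.17) and 0.28 (−0.22 to 0.78). None of 12 glucocorticoid-induced genes was called by limma, at a median of 0.19. PER1 was 0.68 below control in RCO and 0.82 below control in SWOP (log2, limma adjusted p = 0.0213 and adjusted p = 0.0149).

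A few genes lower in RCO were higher in SWOP than in control. THNSL1, a threonine synthase-like protein, had log2 signals of 5.90, 6.18, 6.24, 6.52 and 6.20 in RCO and 7.27, 7.35, 7.18, 6.91 and 7.47 in SWOP (log2 difference −1.03 ± 0.16, limma adjusted p = 0.00149). STOX1, a storkhead-box transcription factor, had 6.66, 6.17, 6.65, 6.45 and 6.44 in RCO and 6.79, 7.97, 7.89, 7.24 and 7.58 in SWOP (log2 difference −1.02 ± 0.23, limma adjusted p = 0.0124). Neither overlapped between the groups. THNSL1 was 0.25 below control in RCO and 0.78 above control in SWOP, and STOX1 0.11 below and 0.91 above (log2, limma adjusted p = 0.324 and adjusted p = 0.0115, and adjusted p = 0.796 and adjusted p = 0.0272).

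Other genes among the largest decreases stood below control in RCO and near control in SWOP. EFHD1, a calcium-binding protein of mitochondria, had 7.98, 7.17, 8.18, 8.0 and 7.61 in RCO and 9.57, 8.72, 9.46, 9.07 and 9.31 in SWOP (log2 difference −1.44 ± 0.20, limma adjusted p = 0.000833), with no overlap. SCARA5, a ferritin receptor, was 1.38 ± 0.30 lower, SLC41A1, a magnesium transporter, 1.14 ± 0.23 lower, and RNF207, a cardiac ubiquitin ligase, 1.07 ± 0.21 lower (limma adjusted p = 0.00963, adjusted p = 0.00594 and adjusted p = 0.00534). Without RCO replicates 2 and 3 SCARA5 was not called at −1.07 (limma adjusted p = 0.0558, range 0.0048 to 0.0558). SWOP minus control was 0.06, −0.17, 0.16 and 0.06 (log2, EFHD1, SCARA5, SLC41A1 and RNF207), none of them called by limma. The only gene at least 4-fold lower carried a locus name alone and is not described.

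Of 47 genes of the mitochondrial ribosome and import machinery none was called by limma (median −0.12), while 3 were lower without RCO replicate 1 and 1 was higher without RCO replicate 5. Of 35 proteasome and ubiquitin genes 1, PSMA7, was called lower by 0.22 ± 0.07 (limma adjusted p = 0.0489), a call lost in 9 of 10 fits without 1 array. That was 2.86% of the list, against 6.4% of all genes. Of 39 translation factors and tRNA synthetases 1 was higher (2.56%, against 5.54% of all genes). The count was 4 without SWOP replicate 1, 2 without RCO replicate 5, 1 without RCO replicate 4 and 0 in the other 7 such fits. Of 16 late preconditioning effectors 1, HMOX1, was higher (6.25%, against 5.54% of all genes). Of 28 autophagy and lysosome genes 3 were higher and 1 lower (10.7% and 3.57%, against 5.54% and 6.4% of all genes). In this list 10 were higher without RCO replicate 1 and 5 without RCO replicate 5. The count of higher ones was 1 without RCO replicate 3 or SWOP replicate 2 or 5. Of 6 adipocyte markers 1, LPL, was lower, of 3 erythrocyte markers 1, HBB, was lower, and of 8 skeletal muscle markers none was called by limma. Of 59 cytosolic ribosomal proteins 57 differences were positive at a median of 0.14, and 5 were called higher and 1 lower. The share called higher was 8.5%, against 5.54% of all genes. The higher count was 17 without SWOP replicate 1 and 16 without RCO replicate 5, was 0 without RCO replicate 3 or SWOP replicate 2 or 5, and lay between 1 and 3 in the other 5 such fits. Of 21 apoptosis and survival genes 4 were higher and 0 lower, among them TNFRSF12A, the receptor for the cytokine TWEAK, at 0.87 ± 0.19 (limma adjusted p = 0.00907). The count was 2 without RCO replicate 2 or 3 or SWOP replicate 2, 4 or 5.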

How the data were processed

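Heart RNA of 20 pigs was measured on a 1-colour porcine oligonucleotide array with 24123 features, and the 10 RCO and SWOP arrays were compared. The deposited values of the authors were taken as log2 signals, since they ran from 3.22 to 15.18 with 2 decimals. RMA and MAS5 are named in the submitters' processing notes, with no version and no statement of which made these values. No further normalization was applied. The 124 control and spike-in features were left out of tests.

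Limma 3.58.1 (R 4.3.3) fitted all 23999 probe sets with 1 mean for each of 4 groups (16 residual degrees of freedom) and empirical Bayes moderation. P-values were adjusted by Benjamini-Hochberg over all probe sets. The platform annotation gave 1 symbol to 10069 probe sets, several to 198 and none to 13732. A gene took its brightest probe set, by mean over all arrays. On simulated arrays the share of false calls came near the set rate when all groups shared 1 spread, and well above it when each group kept its own. The spread was wider in RCO than in SWOP, so the share of false calls may exceed the set rate, above all near the limit. Array properties were compared with exact permutation tests, whose smallest possible p was 0.00794. Plots were drawn with matplotlib 3.10.9, and tables were made with numpy 2.4.6 and pandas 2.3.3 under Python 3.11.15.

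Genes were described through 41 lists, of whose 1233 members 889 were measured (2 under an alias). The members of the comparison and the lists were chosen with earlier results of these data known. Named were, among genes whose higher group mean exceeded the 30th percentile of signal, the 14 largest called differences in each direction (locus, clone and open reading frame names left out), up to 4 called members of each list with the smallest p, and 4 uncalled members of highest signal for the clock, immediate early, redox and smooth muscle lists. A gene was dim when its mean lay below 5.48, the 30th percentile. Alternatives were quantile normalization, median centring, leaving out dim probe sets, an intensity trend with robust moderation, array weights, a replicate block, fitting RCO and SWOP alone, a limit of 1.5-fold, the mean of a gene's probe sets, leaving out each array, and leaving out RCO replicates 2 and 3. Leaving out RCO replicate 1 with SWOP replicate 1, and a spread of its own for each group, were added after seeing the data. No 2 arrays held identical values.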

Additional observations from a re-analysis of the deposited data

Results flagged for a closer look

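For the 114 genes described in the results text, called or not, the highest and lowest array of each group of 5 were set against the other 4 by Dixon's test at the 95% level. Of 228 groups 9 (3.95%) had an array standing apart. Chance gives about 1 in 20 groups. In RCO, replicate 2 was low for DNAJB1, at 9.76 against 11.77 to 12.37 on the other arrays, and for DDIT3, at 7.91 against 9.12 to 9.49. DBP was high in RCO replicate 5, at 8.56 against 8.03 to 8.17. In SWOP, all 6 such arrays were replicate 1. It was high for HSPA6, at 7.59 against 6.03 to 6.46, and for DDIT3, at 8.04 against 7.49 to 7.59. It was low for TNXB, at 9.35 against 9.85 to 10.03, for HK1, at 12.2 against 12.46 to 12.52, for GJA1, at 12.36 against 12.67 to 12.78, and for TTN, at 14.07 against 14.22 to 14.27.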

How the results depend on the processing

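None of the called named genes changed sign under any alternative tried. The naming rule gave 114 called genes, some of them not described above. They are not the same set as the 114 described genes, which include uncalled ones. Of the 114 named genes that were called, 59 kept the call in every fit without 1 array, 52 without RCO replicates 2 and 3, 98 under quantile normalization, 106 with the mean of all probe sets, 82 with a spread of its own for each group and 55 when RCO and SWOP were fitted alone. The mean of all probe sets moved the log2 difference of 18 of the 114 by over 1.5 times, toward a smaller one in 16. The counts of called probe sets (all, higher, lower) were 863, 274 and 589 when RCO and SWOP were fitted alone, 1284, 459 and 825 with a spread for each group, and 772, 379 and 393 with the limit of 1.5-fold. Array weights gave 1359 higher probe sets, and leaving out RCO replicates 2 and 3 gave 896 lower. For genes the counts were 276, 130 and 146 with the 2 groups alone, 461, 225 and 236 with a spread for each group, 309, 204 and 105 with the limit of 1.5-fold, and 428, 202 and 226 without RCO replicates 2 and 3. Leaving out 1 array gave 1006 to 2988 called probe sets, with 317 to 1206 higher and 689 to 1782 lower, and 326 to 1026 genes, with 142 to 522 higher and 184 to 509 lower. The cause of these shifts was not tested, beyond the fewer arrays or stricter limit that some use by construction. The other alternatives stayed within 1.5 times. The share of called probe sets that were higher, 37.3%, was 39.1% after quantile normalization and 32.1% after median centring.

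The replicate block gave 2860 probe sets and 981 genes, and 113 of the 114 named calls remained. Deviations of arrays with the same replicate number correlated at 0.167, 0.019, 0.174, −0.054 and 0.198 between RCO and SWOP, so the numbers were not taken as pairs. Signal over background limits the dim genes, and 13732 probe sets without a symbol are counted but not described.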
